A study of Homo sapiens with 6 samples.

Results

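The genes described here are NFE2L2, which encodes the transcription factor NRF2, and 9 enzyme genes of the detoxification program linked to it: GCLC and GCLM, NQO1, HMOX1, and the aldo-keto reductase genes AKR1B1, AKR1B10, AKR1C1, AKR1C2 and AKR1C3. They were chosen by name, and all 10 were found among the 22004 genes of the count table. The cells were H1299, an established human lung carcinoma line labelled as wild type and epithelial-like, cultured in serum-containing RPMI with ciprofloxacin. In 3 libraries the cells had received 1.5 µM AVJ16, a small molecule inhibitor of the RNA-binding protein IGF2BP1, and in 3 libraries DMSO, both for 48 h. The comparison asked how the inhibitor altered steady-state RNA. The libraries are called A, B and C (DMSO) and D, E and F (AVJ16). All came from 1 cell line, and the RNA-seq was run in triplicate. The methods state biological repeats for the experiments in general, but the labels do not tie each library to a culture of its own, so the p-values measure only the spread between these libraries.

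In unstressed cells the adaptor KEAP1 holds NRF2 and presents it to a ubiquitin ligase for degradation. When electrophiles or oxidants modify KEAP1, NRF2 accumulates, pairs with a small MAF protein and binds antioxidant response elements in its target genes, which BACH1 can occupy as a repressor. The targets serve glutathione synthesis, quinone reduction, haem breakdown and the reduction of aldehydes and ketones by aldo-keto reductases. Because NRF2 is controlled largely through its protein, NFE2L2 RNA is not a measure of NRF2 activity.

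AVJ16-treated cells held more NFE2L2 RNA and less AKR1B1 RNA, and these were the 2 of the 10 genes that passed the test. Neither subunit of glutamate-cysteine ligase, nor NQO1 or HMOX1, passed it. AKR1B10, AKR1C1, AKR1C2 and AKR1C3 were low in 5 of the 6 libraries and highest in a single DMSO library, B, so their group differences depended on that library.

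The AKR1C genes lie next to each other on chromosome 10 and are nearly identical, which limits what short reads can assign to each. AKR1C1 and AKR1C2 differed at 19 of 969 coding bases (98.0% identical), AKR1C1 and AKR1C3 at 83 (91.4%), and AKR1C2 and AKR1C3 at 87 (91.0%). The 75 coding bases from position 88 to 162, counted from the A of the start codon, are shown because they separated AKR1C1 from AKR1C2 best, by 10 bases. Capitals mark the positions not identical in all 3 genes. The sequences were read 5′ to 3′ from GENCODE 44 transcripts (GRCh38), AKR1C1 and AKR1C3 from the plus strand and AKR1C2 from the minus strand.
AKR1C1: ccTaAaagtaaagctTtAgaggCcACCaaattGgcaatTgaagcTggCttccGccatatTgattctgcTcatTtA
AKR1C2: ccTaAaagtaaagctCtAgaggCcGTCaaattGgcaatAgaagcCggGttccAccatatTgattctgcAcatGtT
AKR1C3: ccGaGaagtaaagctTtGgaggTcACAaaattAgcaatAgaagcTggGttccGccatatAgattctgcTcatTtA

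From coding position 784 to the end of the coding sequence, at 969, AKR1C1 and AKR1C2 were identical over 186 bases. The first 75 of these bases, the length of the sequencing reads, show a stretch in which a read cannot be placed between the pair. Only 2 bases, in capitals, set AKR1C3 apart there.
AKR1C1 and AKR1C2: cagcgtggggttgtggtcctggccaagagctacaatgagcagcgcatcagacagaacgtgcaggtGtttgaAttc
AKR1C3: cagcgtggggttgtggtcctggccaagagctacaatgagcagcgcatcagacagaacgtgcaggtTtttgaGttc

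Of all 75-base windows of the AKR1C2 transcript, 36.0% also occurred in another gene, 33.9% in AKR1C1. The shared part was 16.8% for AKR1C1, 12.3% for AKR1C3, 7.31% for AKR1B10 and 0 for AKR1B1, whose coding sequence was 75.2% identical to that of AKR1B10. Counts of the AKR1C genes are therefore uncertain as to the gene they came from. In NQO1, GCLC and NFE2L2 the shared windows (17.9%, 2.94% and 4.93%) lay in genes read from the opposite strand. The library kit kept the strand of the RNA, but whether the counting used strand is not stated in the sources used here.

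Promoter windows, from 250 bases before to 50 bases after the RefSeq start site (GRCh38.p14), matched 8 of the 10 genes with 11 windows. AKR1B10 and HMOX1 were not matched. The core of the antioxidant response element was searched as TGACNNNGC on both strands. It matched in 13.3% of 35116 promoters and, among these genes, in GCLM alone, at offset -34 from the start site on the strand opposite to the gene. The AP-1 motif TGACTCA, which overlaps the former where GC follows it, matched in 4.95% of promoters and in none of these genes. The GCLM match is shown in capitals with its flanks, on the strand of the gene (minus strand, chr1:93909445-93909474).
GCLM: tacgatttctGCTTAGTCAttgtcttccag

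The match is a description of these letters and no evidence of binding, and windows without one say nothing about elements farther away.

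The 6 libraries held 19353830 to 30253721 counts. Expression is given below as CPM, the counts of a gene relative to the TMM-scaled size of its library. KRT8, KRT18 and VIM were high in every library, whereas EPCAM stayed under 1 CPM, CDH1 reached at most 1.60 CPM, the lung markers NKX2-1 and SFTPB summed to 0.596 to 1.07 CPM, and SFTPC, PTPRC and CD3E were not among the listed genes. Library D stood apart from its group: 15.2% of the genes tested differed more than 1.5-fold from the mean of E and F, against 0.986% to 4.08% for the other libraries compared with their own group. Mitochondrial genes took 11.9% of the counts in D and 5.13% to 6.66% elsewhere. Library B stood apart in a small set of genes given below with AKR1B10. Values of the 10 genes that rest on B or D are given with and without it.

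**Figure D1:**
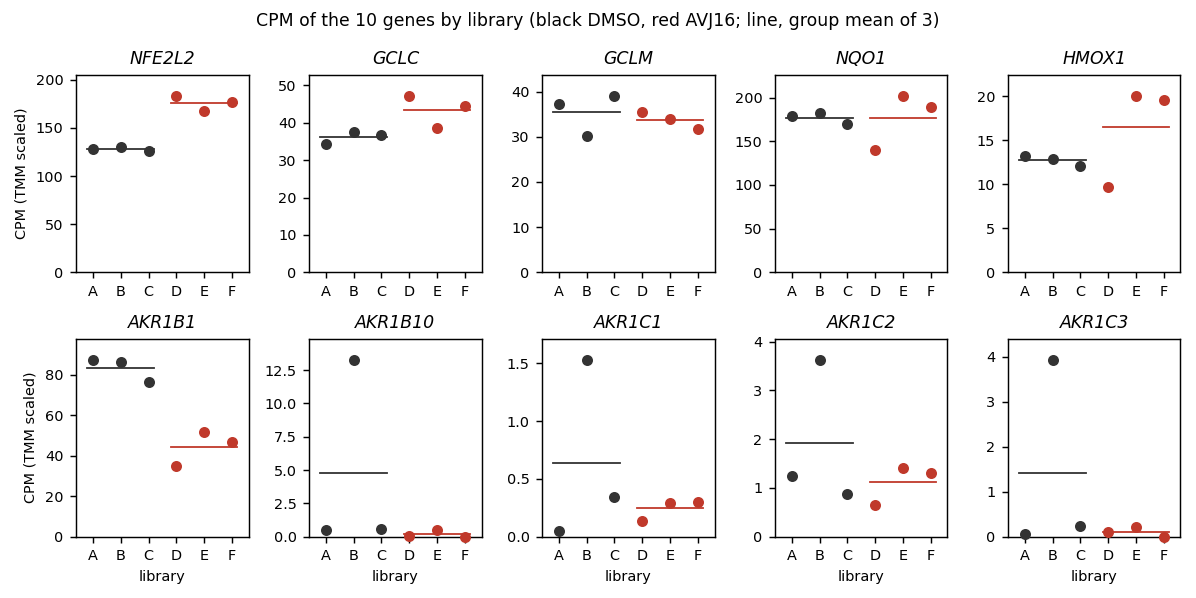
CPM of each of the 10 genes in each library, on a linear axis from 0 (black points, DMSO libraries A to C; red points, AVJ16 libraries D to F; lines, means of 3). NFE2L2 lies higher and AKR1B1 lower in all 3 AVJ16 libraries, D lies below E and F for NQO1 and HMOX1, and B lies above the other 5 libraries for AKR1B10 and the AKR1C genes.

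Levels can be compared between genes only per length, and the order depended on the length used. Per kilobase of main transcript, mean DMSO levels were 70.2 CPM for NQO1, 61.3 for AKR1B1, 52.4 for NFE2L2, 9.56 for GCLC, 8.19 for HMOX1, 7.27 for GCLM, 2.94 for AKR1B10, 1.18 for AKR1C3, 0.595 for AKR1C2 and 0.0977 for AKR1C1. The ranges of NQO1, AKR1B1 and NFE2L2 over the DMSO libraries did not touch each other, whereas those of GCLM and HMOX1 overlapped (6.17 to 8.01 and 7.76 to 8.53 CPM per kb). Per kilobase of all annotated exons together, NQO1, AKR1B1 and NFE2L2 stayed the first 3, but NFE2L2 dropped to 8.57 CPM per kb, close to GCLM (6.54), HMOX1 (5.52) and GCLC (4.2), which were then in the reverse order. AKR1B10 ran from 0.283 to 8.20 CPM per kb of transcript within the DMSO group, so its place in the order was set by 1 library. The range of AKR1C3 (0.0387 to 3.31 CPM per kb of transcript) overlapped those of AKR1C1 and AKR1C2. The ranges of AKR1C1 (0.00701 to 0.234) and AKR1C2 (0.273 to 1.13) did not overlap per kilobase of transcript. Per kilobase of all exons they did.

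NFE2L2, the gene of NRF2 itself, read 128, 131 and 126 CPM in A, B and C and 184, 168 and 177 CPM in D, E and F. Each AVJ16 library lay above each DMSO library, and D was the highest. The mean rose from 128 ± 2.52 to 176 ± 7.90 CPM (SD, n = 3 each), or 1.37-fold, with a log2 fold change of 0.46 ± 0.09 (SE) and an adjusted p of 0.0113 by edgeR's quasi-likelihood test. In RNA from whole cultures, a change in every cell and a change in part of the cells cannot be told apart. The direction was the same in all 13 alternatives run. The call was lost without A (adjusted p = 0.078), without C (0.0652) and without F (0.0533), and it held without B (0.0466) and without D (0.000464). Of the NFE2L2 exon length, 24.8% lies under exons of genes on the opposite strand (AGPS, HNRNPA3 and ENSG00000222043) and 13.6% under a gene on the same strand. The gene spans chr2:177218667-177392756 on the minus strand (GRCh38).

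GCLC, the catalytic subunit of glutamate-cysteine ligase, the rate-limiting enzyme of glutathione synthesis, read 34.4, 37.6 and 36.6 CPM in A, B and C and 47.2, 38.7 and 44.4 CPM in D, E and F. All 3 AVJ16 libraries were above all 3 DMSO libraries, E by a small margin. The log2 fold change was 0.26 (95% interval 0.01 to 0.52), with an adjusted p of 0.15. Without D it was 0.20 and did not pass (adjusted p = 0.0957). It passed only in a fit that weighted the libraries by their quality (limma-voom), at 0.30 (adjusted p = 0.00204). That fit called 24.3% of all genes higher, and its weights ran from 0.13 for D to 5.52 for A.

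GCLM, the modifier subunit that makes the catalytic subunit more efficient, read 37.3, 30.1 and 39.1 CPM with DMSO and 35.5, 34 and 31.7 CPM with AVJ16. The groups overlapped, and B was the lowest library of all. Its log2 fold change was -0.07 (95% interval -0.36 to 0.21, adjusted p = 0.74). Within a library, the ratio of GCLM to GCLC counts was 1.08, 0.802 and 1.07 in A, B and C and 0.75, 0.88 and 0.715 in D, E and F. The mean log2 ratio, AVJ16 minus DMSO, differed by -0.33, and B lay among the treated libraries (exact permutation test, two-sided, p = 0.2, where 3 against 3 libraries cannot give less than 0.1).

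NQO1, the quinone reductase often used as a readout of NRF2, read 179, 182 and 170 CPM in A, B and C and 140, 202 and 189 CPM in D, E and F. D was the lowest and E and F were the highest of the 6, and the group means were both 177 CPM (SD 6.68 in DMSO and 32.5 in AVJ16, n = 3 each). The log2 fold change was 0.00 with a 95% interval from -0.31 to 0.31. Without D it was 0.14 (adjusted p = 0.155), and it took either sign depending on the scaling and the library left out. NQO1 therefore showed no detectable change, and the interval left room for one of 0.31 in log2 either way.

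HMOX1 encodes haem oxygenase 1, which opens the haem ring to biliverdin, carbon monoxide and iron. It read 13.3, 12.9 and 12.1 CPM in A, B and C and 9.73, 20.1 and 19.6 CPM in D, E and F. E and F were above all DMSO libraries and D was below all of them. With all libraries the log2 fold change was 0.38 (95% interval -0.17 to 0.92) and did not pass the test (adjusted p = 0.329). Without D it was 0.64 (adjusted p = 0.000152), at a setting where 17.6% of all genes tested were called higher in AVJ16. The limma-voom fit with quality weights gave 0.56 (adjusted p = 0.000107). Mitochondrial share and HMOX1 both set D apart, and the part of the former in the latter was not tested.

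OSGIN1, a growth inhibitor induced by oxidative stress and an NRF2 target, had the same order of libraries as HMOX1: 13.8, 12.4 and 12.2 CPM in A, B and C, 10.7 CPM in D, and 27.9 and 26.3 CPM in E and F. Its log2 fold change was 0.76 (adjusted p = 0.121), and 1.08 without D (adjusted p = 1.59e-06). D was also lowest and E and F highest for NQO1, so that feature is not particular to HMOX1 and OSGIN1. The ratio of HMOX1 to NQO1 counts was 0.0739, 0.0706 and 0.0711 in A, B and C, 0.0693 in D, and 0.0993 and 0.104 in E and F. The mean log2 ratio was 0.32 higher in AVJ16 (exact permutation test, two-sided, p = 0.4), D again being below the DMSO libraries.

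**Figure D2:**
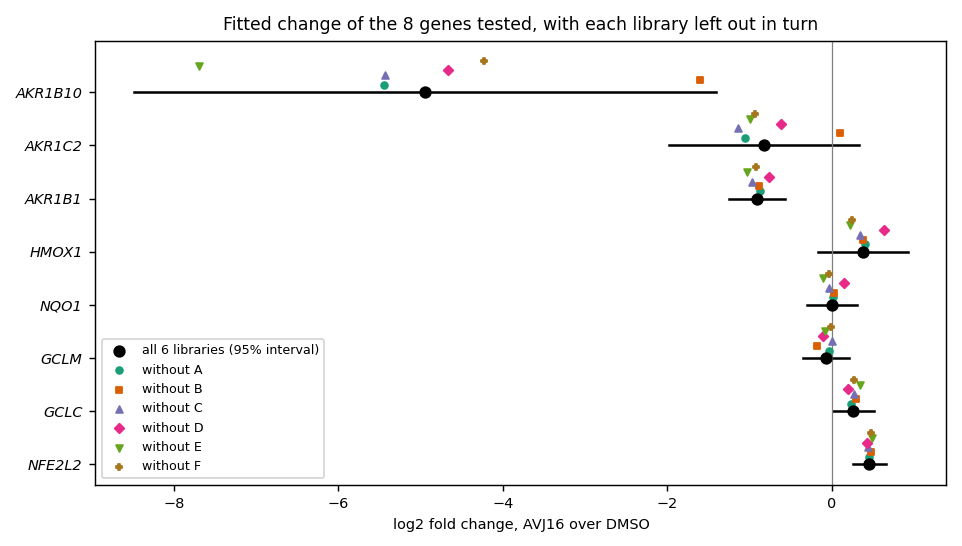
Log2 fold change of AVJ16 over DMSO for the 8 genes tested (black points, all 6 libraries with 95% intervals; coloured marks, the value with 1 library left out). The marks of NFE2L2, GCLC, HMOX1, AKR1B1 and AKR1B10 stay on 1 side of 0. The mark without D lies highest for HMOX1 at 0.64, and the marks without B lie near 0 for AKR1C2 and at -1.61 for AKR1B10.

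AKR1B1 encodes aldose reductase, which reduces glucose to sorbitol in the polyol pathway and also reduces lipid aldehydes. It read 87.4, 86.2 and 76.7 CPM in A, B and C and 34.8, 51.9 and 46.6 CPM in D, E and F. Every AVJ16 library was below every DMSO library, and D was the lowest. The mean fell from 83.4 ± 5.89 to 44.4 ± 8.77 CPM (SD, n = 3 each), which is 0.532 of the DMSO level, with a log2 fold change of -0.91 ± 0.15 (SE) and an adjusted p of 0.00572. Over 13 alternatives the value ran from -1.03 to -0.76 and the call was kept in all of them. Without D it was -0.76 (adjusted p = 1.8e-05). The gene lies at chr7:134442356-134459284 on the minus strand, and no other gene overlaps its exons.

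The 5 genes whose log2 CPM followed AKR1B1 most closely over the 6 libraries, out of 11219 genes that averaged 5 CPM or more, were CCDC51 (Pearson r = 0.999), TSPAN9 (0.998), OAZ2 (0.997), ARHGEF10L (0.997) and HEMK1 (0.996). Their log2 fold changes ran from -0.69 to -0.27, smaller than that of AKR1B1. The 6 points share the treatment groups, so these correlations are a description only.

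AKR1B10, a retinal and lipid aldehyde reductase often raised in lung cancers, lies beside AKR1B1 on chromosome 7 (chr7:134527567-134541412, plus strand). It had 10, 399 and 11 counts in A, B and C and 1, 11 and 0 counts in D, E and F, or 0.459, 13.3 and 0.537 CPM with DMSO and 0.0457, 0.457 and 0 CPM with AVJ16. The count of 0 in F lay under a floor set at 3 counts (0.101 CPM), and its exact 95% Poisson interval reached 3.69 counts. B was 24.7 times as high as the next library, and its exact 95% Poisson interval, 361 to 440 counts, lay far from the 5.49 to 19.7 counts of C and E (counting error only). The groups did not overlap, but E and A, the nearest libraries, differed by less than their counting error. With all libraries the log2 fold change was -4.95 (95% interval -8.49 to -1.41, adjusted p = 0.066). Without B it was -1.61 (adjusted p = 0.335), and without A it passed the test at -5.44 (adjusted p = 0.0495).

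AKR1C3 and AKR1C1 had too few counts in most libraries to pass the filter of the test. AKR1C3, a ketosteroid reductase and prostaglandin F synthase, had 1, 118 and 5 counts in A, B and C and 2, 5 and 0 counts in D, E and F (the 0 allowing at most 0.101 CPM). B was 16.1 times as high as the next library. With no filter its log2 fold change was -4.02 (adjusted p = 0.147). Without B it was -0.59 (adjusted p = 0.805), and without A it was -4.52 and passed the test (adjusted p = 0.0477). The gene spans chr10:5035354-5107686 on the plus strand.

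AKR1C1, which inactivates progesterone by reducing its 20-keto group, had 1, 46 and 7 counts in A, B and C and 3, 7 and 9 in D, E and F. B was 4.48 times as high as the next library. Its log2 fold change with no filter was -1.50 (adjusted p = 0.29), and it turned to 0.39 without B (adjusted p = 0.806). The gene lies at chr10:4963253-4983283 on the plus strand.

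AKR1C2, which inactivates dihydrotestosterone, had 27, 109 and 18 counts in A, B and C and 14, 34 and 39 in D, E and F. It was the most read of the AKR1C genes in every library but B, where AKR1C3 had 118 counts, and B was 2.57 times as high as the next library. The log2 fold change was -0.83 (95% interval -1.98 to 0.33, adjusted p = 0.311), and 0.10 without B (adjusted p = 0.903). It lies at chr10:4987775-5018031 on the minus strand. With read-length windows shared among the AKR1C genes, the order of their levels is uncertain.

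The rise in B was unequal among the low genes: against the mean of A and C it was 27.1-fold for AKR1C3, 26.7-fold for AKR1B10, 7.90-fold for AKR1C1 and 3.43-fold for AKR1C2. The log2 ratio of AKR1C3 to AKR1C1 (pseudocount 0.5) was 1.35 in B, 0.00 in A and -0.45 in C. In D, E and F it was -0.49, -0.45 and -4.25, F having 0 AKR1C3 counts. Its mean differed by -2.03 between AVJ16 and DMSO (exact permutation test, two-sided, p = 0.2), and F as well as B weighed in this difference. For AKR1B10 to AKR1B1 the difference was -3.30 (p = 0.3) and for AKR1C1 to AKR1C2 it was 0.14 (p = 1), by the same exact test. The lowest ratio of AKR1B10 to AKR1B1 was in F (-11.44), which had 0 AKR1B10 counts. None of the 5 ratios compared could pass an adjusted threshold with 3 libraries a group.

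Across the whole table, 12 genes had at least 30 counts in B and at least 5 times the CPM of every other library. By the same rule 1 gene stood out in C and 0 in A, D, E and F. The 12 in B were ALDH1A1 (420 counts), AKR1B10, CPLX2, ALDH3A1 (159), AKR1C3, KRT81, CYP24A1, S100A6, CEACAM6, GPX2 (54), RSPO3 and MUC5AC. ALDH1A1 and ALDH3A1 are aldehyde dehydrogenases and GPX2 is a glutathione peroxidase and NRF2 target, while KRT81, CEACAM6 and MUC5AC are a keratin, an adhesion molecule and a mucin of epithelia. GPX2 had 0, 1, 0, 1 and 0 counts in A, C, D, E and F, and CEACAM6 had 0 in all of them. The epithelial keratin KRT19 had 15 counts in B and 0 to 2 elsewhere. Of the other epithelial markers, KRT8, KRT18 and CDH1 were highest in B within the DMSO group, by smaller margins. KRT8 read 333 CPM in B against 299 and 289 CPM in A and C, and KRT18 518 against 492 and 450 CPM. CDH1 was 1.60 CPM in B against 1.28 and 1.46 CPM in A and C. KRT8 and KRT18 in B lay below E and F. EPCAM was lowest in B (0.299 CPM, from 9 counts). NQO1 (182 CPM), GCLC (37.6 CPM) and NFE2L2 (131 CPM) in B lay within 1.5-fold of A and C, and GCLM was lowest there. Other listed NRF2 targets went both ways. ABCC2 (4.56 CPM) and ABCC3 (4.46 CPM) were highest in B, while SLC7A11 (51.5 CPM) was lower there than in A and C. The source of the B counts was not tested.

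**Figure D3:**
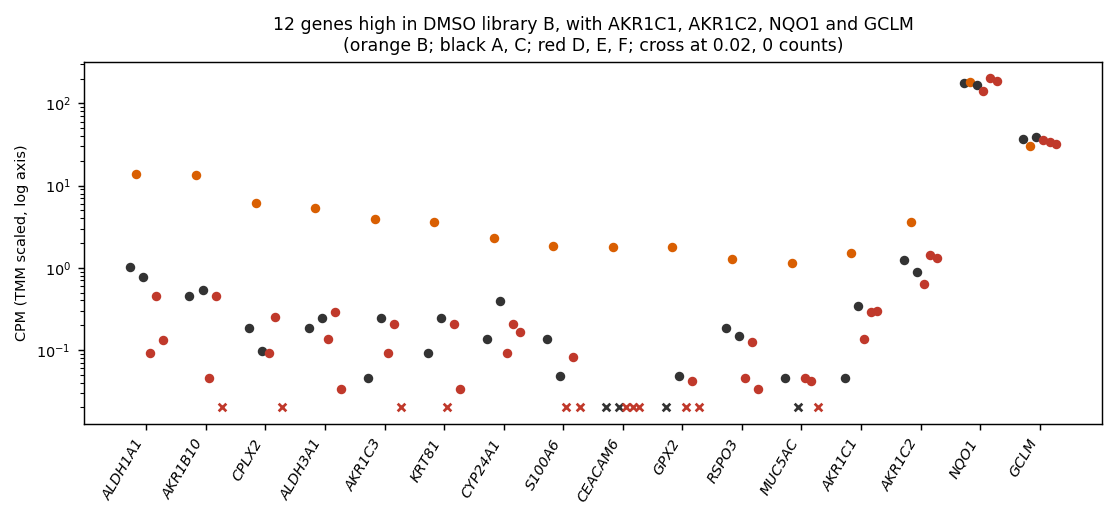
CPM, on a log axis, of the 12 genes that stood out in library B and of AKR1C1, AKR1C2, NQO1 and GCLM (orange, B; black, A and C; red, D to F; crosses at 0.02, 0 counts). The B points of AKR1B10 and AKR1C3 lie 24.7 and 16.1 times above the next library, while NQO1 and GCLM show no such gap.

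Of the 10 genes, 8 were tested, and 2 (NFE2L2 higher, AKR1B1 lower) passed an adjusted p of 0.05 by edgeR's quasi-likelihood test. Of all 16330 genes tested, 14.6% passed, 5.87% higher and 8.77% lower in AVJ16. The 6 others did not pass. The median log2 fold change of the 8 was -0.04, against -0.01 over all genes tested. Of the 8, 4 (NFE2L2, GCLC, AKR1B1 and AKR1B10) had groups that did not overlap, against 37.1% of all genes tested. With so few members, neither count is read as setting these genes apart from the rest.

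The wider pathway was followed in 6 lists of other genes, 105 in all, of which 96 were in the table and 87 were tested. In AVJ16, 6 passed as higher and 9 as lower, and the median log2 fold change was 0.05. These shares are close to those over all genes (5.87% higher, 8.77% lower). Each list alone is small, so its counts are not read as setting it apart. Among 15 regulators of NRF2 tested, 1 was higher and 2 were lower. BACH2, a repressor of the BACH family, fell from 6.90 ± 0.452 to 2.80 ± 0.897 CPM (log2 fold change -1.31, adjusted p = 0.0052). MAFF, a small MAF partner, rose from 12.1 ± 1.52 to 21.6 ± 2.25 CPM (0.83, adjusted p = 0.00591). BTRC, the substrate receptor of another ligase that marks NRF2, fell (-0.59, adjusted p = 0.0176). KEAP1 (-0.09, adjusted p = 0.713) and BACH1 (0.14, adjusted p = 0.545) did not pass, and KEAP1 turned to 0.06 without D. MAFK was at 0.39 (adjusted p = 0.125) and at 0.54 without D (adjusted p = 0.000239).

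Among 28 other NRF2 targets tested, 2 rose, 1 fell and 25 did not pass, with a median log2 fold change of -0.02. PTGR1, a reductase of leukotrienes and prostaglandins, read 30.6, 35.8 and 30.4 CPM in A, B and C and 49.7, 48.9 and 45.6 CPM in D, E and F (0.57, adjusted p = 0.0109). PGD, of the pentose phosphate pathway, rose by less (0.31, adjusted p = 0.049). EPHX1, microsomal epoxide hydrolase, fell (-0.65, adjusted p = 0.0116). The widely used targets TXNRD1 (-0.05, adjusted p = 0.727) and SLC7A11 (-0.17, adjusted p = 0.629) did not pass.

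The other aldo-keto reductases gave 1 lower and 0 higher of 5 tested. The 1 that fell was KCNAB3, a potassium channel subunit of that fold, from 1.32 ± 0.219 to 0.54 ± 0.12 CPM (-1.29, adjusted p = 0.0152). KCNAB2 (-0.49, adjusted p = 0.114), AKR1E2 (0.50, adjusted p = 0.182) and AKR7A2 (0.11, adjusted p = 0.671) did not pass with all libraries. Without D, AKR1E2 was at 0.68 (adjusted p = 0.00764) and AKR7A2 at 0.26 (adjusted p = 0.0279), and both passed. AKR7A2 turned to -0.02 without E. AKR1B15, the near copy of AKR1B10 that shared most windows with it (4.66%), had 10 counts in B and 0 to 2 elsewhere.

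Of 22 other glutathione genes, 2 rose and 2 fell. CHAC1, which degrades glutathione and is known as a target of the ATF4 stress pathway, rose most. It read 14.6, 13.7 and 14.4 CPM in A, B and C and 23.8, 36.7 and 42.4 CPM in D, E and F (1.27, adjusted p = 0.00456). Its groups did not overlap, and D was the lowest treated library. GGCT, another of the listed glutathione genes, rose (0.37, adjusted p = 0.0352), and the transferases MGST2 (-0.97, adjusted p = 0.00705) and GSTM2 (-0.82, adjusted p = 0.0315) fell.

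Of 12 haem and iron genes, 3 fell and 0 rose, with a median log2 fold change of 0.01. Over all genes tested, 8.77% fell and 5.87% rose. TFRC, the transferrin receptor, read 88.6, 74.6 and 80.1 CPM in A, B and C and 37.0, 46.5 and 50.7 CPM in D, E and F (-0.86, adjusted p = 0.00503). The transporters ABCB10, of the mitochondrial inner membrane (-0.73, adjusted p = 0.015), and FLVCR1, first described as a haem exporter (-0.50, adjusted p = 0.047), also fell, and BLVRA, which reduces the biliverdin made by haem oxygenase, was at 0.41 (adjusted p = 0.0505) and passed without D at 0.48 (adjusted p = 0.00095). Of 12 genes of the AHR pathway and of quinone or carbonyl reduction, 1 rose, the AHR target TIPARP (0.50, adjusted p = 0.0244), while NQO2 (0.28), DCXR (-0.31) and CYB5R3 (0.20) did not pass (adjusted p from 0.169 to 0.274). NQO2 passed without D, at 0.39 (adjusted p = 0.00212).

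Leaving out D raised the count of other listed genes called higher from 6 to 24 and left 10 called lower, where 17.6% and 19.6% of all genes were then called. Leaving out any other library gave 2 or 3 higher and 3 to 7 lower, where 1.38% to 3.64% of all genes were called higher and 3.17% to 5.92% lower. The number of calls thus moved over the whole table and not in these lists alone. The calls of BACH2, MAFF, CHAC1, MGST2 and TFRC were kept in all 13 alternatives run, and those of the other 10 listed genes that passed were lost in 2 to 9 of them.

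**Figure D4:**
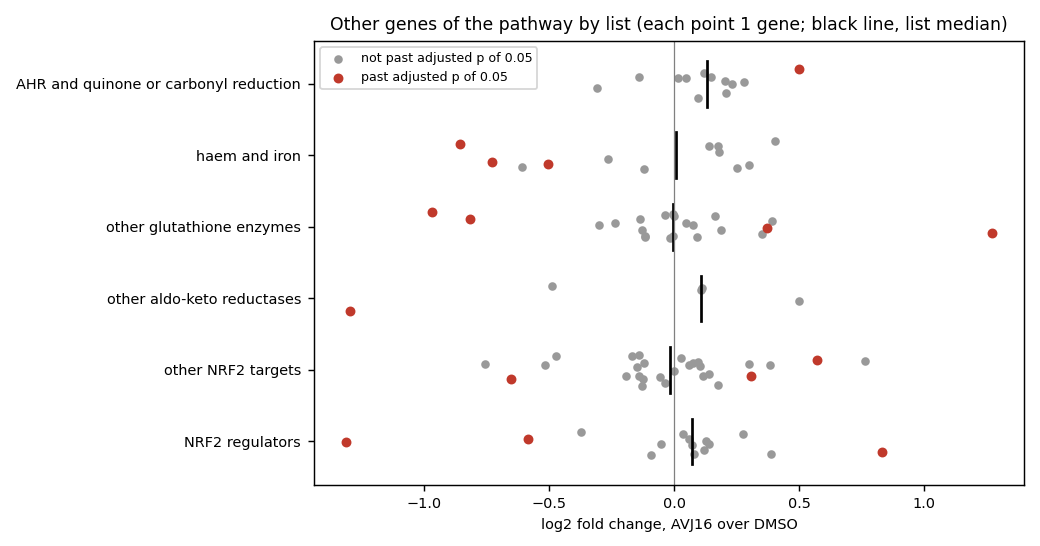
Log2 fold change of AVJ16 over DMSO for the 87 other pathway genes tested plus those shared by lists, 1 point per gene and list (red, adjusted p under 0.05; grey, not passed; black line, list median). The medians lie between -0.02 and 0.13, and the called genes lie on both sides of 0 in 3 of the 6 lists.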

How the data were processed

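Per the labels and methods, polyadenylated RNA went into a strand-keeping kit and was sequenced as single-end reads of 75 bases. The deposited values are counts per gene, which the authors made with cutadapt 2.10, TopHat2 2.1.1 (GRCh38, Ensembl 99) and HTSeq 2.01, dropping genes with a sum under 10. The 6 columns of deposited normalised counts (DESeq2 1.36.0) and the authors' own comparison were used in no result. The columns have letters, which were tied to groups by the condition bar above the study's heat map, and replicate numbers could not be assigned.

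The test was that of edgeR 4.0.16 in R 4.3.3, with limma 3.58.1: filterByExpr (minimum count 10, total 15), TMM, robust two-sided quasi-likelihood F test, and Benjamini-Hochberg adjustment over 16330 genes at 0.05. SEs were derived from F, with a prior count of 0.125. The fitting was tested on simulated data. Alternatives were DESeq2 1.42.0, limma-voom with quality weights, other scalings, no filter, the study's thresholds and leaving out each library. Named genes were the 10 members, up to 4 listed genes per list with the smallest p, and 4 listed genes tied to their roles (KEAP1, BACH1, TXNRD1, SLC7A11). The 12 genes of library B, GPX2, KRT19, AKR1B15, ABCC2 and ABCC3 were named after their values were seen. Members and lists were chosen with earlier results of these data known.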

Additional observations from a re-analysis of the deposited data

How the results depend on the processing

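No paired analysis was possible because the columns carry letters and no replicate numbers. AKR1B1 kept its direction and call under every alternative run. With all libraries 958 genes were higher and 1432 lower. Scaling by library size, which moved the median log2 fold change of all genes to -0.12, gave 523 and 2215, with 3 other listed genes higher. limma-voom with quality weights gave 3963 and 4238, with 3 members higher, and 27 other listed genes higher and 17 lower. The study's thresholds (adjusted p of 0.1, log2 fold change beyond 0.5) gave 0 members higher and 2 lower, NFE2L2 being at 0.46 and AKR1B10 passing, and 3 other listed genes higher.

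With 1 library left out in turn, 231 to 2958 genes were higher and 527 to 3292 lower, the most without D. Members called numbered 0 (without A, C or F) to 2 (without D, with HMOX1) higher and 1 to 2 (without A, with AKR1B10) lower, and other listed genes 2 to 24 higher and 3 to 10 lower. The log2 ratios ran from -4.45 to -1.76 (AKR1B10 to AKR1B1), from -0.83 to 0.65 (AKR1C1 to AKR1C2), from -2.67 to -0.77 (AKR1C3 to AKR1C1), from -0.47 to -0.25 (GCLM to GCLC) and from 0.21 to 0.50 (HMOX1 to NQO1).

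Values that changed sign were NQO1 (-0.11 by library size, -0.0093 by upper quartile, and from -0.10 to 0.14 with 1 library left out, below 0 without C, E or F), GCLM (from -0.18 without B to 0.0017 without C), AKR1C2 (from -1.14 without C to 0.10 without B), KEAP1 (from -0.19 without E to 0.061 without D), AKR7A2 (from -0.016 without E to 0.26 without D) and, with no filter and chosen after seeing the data, AKR1C1 (from -1.99 without A to 0.39 without B). The cause was not tested. DESeq2 gave no adjusted p for AKR1B10. Depth limits AKR1B10 and the AKR1C genes, which had at most 39 counts in any library but B.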
